A study of Mus musculus with 8 samples.

Results

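Notch receptors, their ligands and their target genes were followed in bone-forming cells grown from the mouse skull vault (primary calvarial osteoblasts) on day 7 of osteogenic differentiation. The set held 10 genes: the receptors Notch1, Notch2 and Notch3, the ligands Jag1, Jag2 and Dll1, and the targets Hes1, Hey1, Heyl and Nrarp. All probes that the platform annotation assigns to these symbols were taken, 11 of the 25697 probes on the array and 10 of its 16593 named genes, with 2 probes for Notch2 and 1 for each other gene. The 8 arrays, all from the C57Bl/6 background, fell into 4 of genotype Lrp5-/- and 4 of genotype Lrp5+/+, called knockout-labelled and control arrays below. Per the labels, adenovirus carrying Cre-recombinase or green fluorescent protein had been added 48 hours before differentiation was induced with beta-glycerol phosphate at 10 mM and ascorbic acid at 50 ug/ml. The virus given to either group is not stated. The labels also do not say whether arrays of the same group stem from different animals or cultures, so each p-value covers array-to-array spread only, which may be technical. The series title concerns fatty acid metabolism under loss of Lrp5, a Wnt coreceptor.

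Notch receptors are single-pass proteins that are activated by Jagged or Delta-like ligands on a neighbouring cell. Ligand binding lets ADAM proteases and then gamma-secretase cut the receptor, and the freed intracellular domain enters the nucleus, binds the DNA-binding protein RBPJ and switches on target genes. Among these, Hes1, Hey1 and Heyl encode basic helix-loop-helix repressors, and Nrarp encodes an ankyrin repeat protein that limits the signal. In the osteoblast lineage, Notch signalling is known to hold back differentiation, and Hes and Hey proteins bind and inhibit Runx2, the master transcription factor of the lineage.

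Facts of the arrays bear on how the members can be read. A probe was called detected on an array when its detection p-value was under 0.01, and 9685 to 10363 probes (37.7% to 40.3%) were detected per array. Values are log2 signals from the neqc method (background correction and quantile normalization), and differences are knockout-labelled minus control in log2. The only Lrp5 probe read 5.54 ± 0.12 (SD, n = 4) in the control group, where 1 array detected it, and 5.87 ± 0.26 in the knockout-labelled group, where 2 did (exact two-sided permutation p = 0.0857). Whether that probe lies in the deleted part is not known here, so the labels were not checked by it and directions rest on them alone. Of 10 osteoblast markers, 8 had a probe, and Runx2 and Spp1 had none under their symbols. Col1a1, Col1a2, Sparc, Sp7 and Alpl were detected on every array, and Ibsp on 1 control and 4 knockout-labelled arrays. Bglap, which encodes osteocalcin, and Postn were detected on none. The 6 detected markers all had differences above 0, and 0 passed an adjusted p of 0.05 in limma, against 8.62% of all genes tested. Col1a2 differed by 0.34 (limma adjusted p = 0.0561) and Ibsp by 0.58. The test took genes detected on at least 4 arrays, which Ibsp met only through the knockout-labelled group, where it is high. No p-value is therefore given for Ibsp, and its difference above 0 is no separate evidence.

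Promoter sequence is shown for the receptor with the lowest unadjusted p-value of the set and for a target gene. RefSeq promoter windows on GRCm38.p6, from 250 bases before to 50 after the annotated start, were matched for 7 of the 10 genes, in 8 windows, since Dll1 has a pair of starts. Hes1, Hey1 and Heyl were not matched. The 250 bases before the start are printed below, 5′ to 3′ on the strand of the gene, with capitals marking GC boxes, the 6 letters GGGCGG or their reverse complement.
Notch1 (chr2:26503823-26504072, minus strand): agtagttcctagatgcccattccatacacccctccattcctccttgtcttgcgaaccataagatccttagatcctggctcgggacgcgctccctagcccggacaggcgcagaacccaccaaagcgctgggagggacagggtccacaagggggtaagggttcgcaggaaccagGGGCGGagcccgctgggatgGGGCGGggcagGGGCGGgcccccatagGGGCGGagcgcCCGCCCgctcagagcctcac
Nrarp (chr2:25180508-25180757, plus strand): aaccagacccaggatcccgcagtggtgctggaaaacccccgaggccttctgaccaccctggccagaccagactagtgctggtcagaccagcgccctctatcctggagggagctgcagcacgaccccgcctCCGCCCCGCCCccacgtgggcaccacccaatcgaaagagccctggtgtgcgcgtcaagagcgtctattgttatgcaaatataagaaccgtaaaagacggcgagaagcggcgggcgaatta
The Notch1 stretch holds 5 GC boxes and the Nrarp stretch 2, which overlap each other. Over the whole windows, 5 of the 8 member windows had at least 1 GC box, against 35.7% of the 32851 windows in the table. The member windows were 55.7% to 86% G and C, where the median of all windows was 52.7%, and the counts were not adjusted for this. The core letters of the RBPJ motif, TGGGAA on either strand, were in 0 of the 8 member windows and in 25.6% of all windows, and the longer form GTGGGAA, which contains the core, was in 0 and 6.38%. A missing match says only that these letters are not in these windows.

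Of the 10 genes, Notch1 and Hes1 were detected on all 8 arrays, Dll1 on 7, Hey1 on 6 and Jag1 on 3. Notch2, Notch3, Jag2, Heyl and Nrarp were detected on no array. Only the 4 genes detected on at least 4 arrays (Notch1, Dll1, Hes1 and Hey1) entered the test. None of these 4 passed an adjusted p of 0.05 in limma: 0 rose and 0 fell, against 607 of the 7041 genes tested (8.62%), and 1 of the 4 had an unadjusted p under 0.05, against 25.8% of all genes. In 0 of the 4 did the control and knockout-labelled arrays separate without overlap, where 16.8% of all genes did. The median difference of the 4 was -0.12, with 3 below 0 and 1 above, beside a median of 0.00 over all genes.

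**Figure D1:**
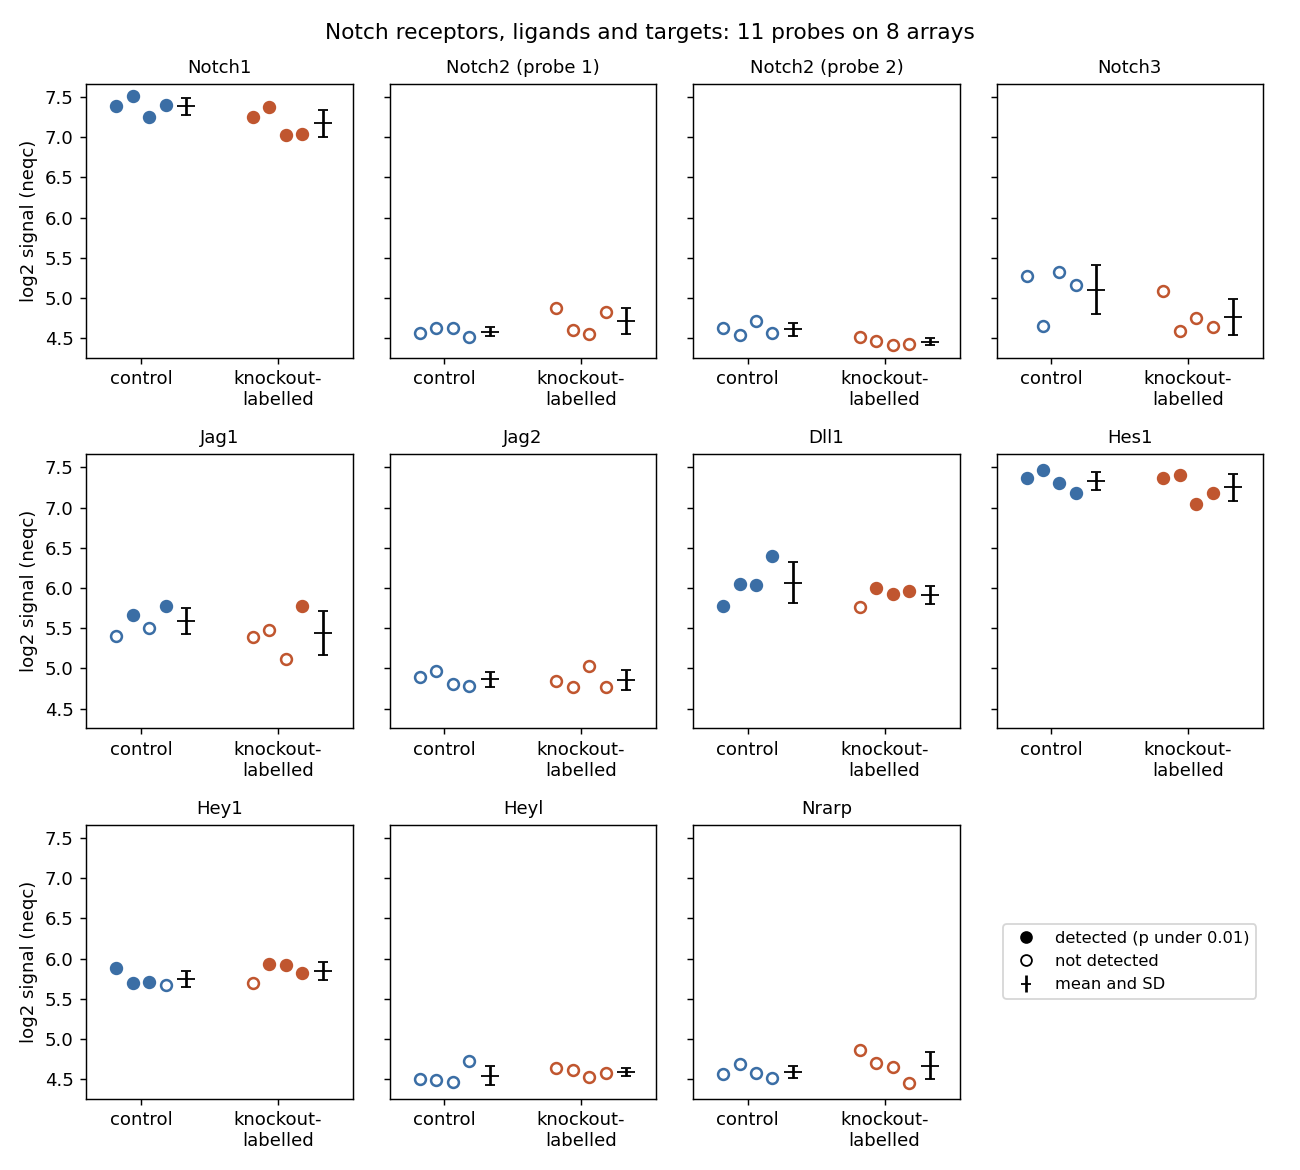
Normalized log2 signal of the 11 member probes on each of 4 control and 4 knockout-labelled arrays; filled points were detected (p under 0.01), open points were not, and black marks give the mean and SD. The groups overlap for Notch1, Dll1, Hes1 and Hey1, for Notch1 only through knockout-labelled array 2. For 6 probes there are open points only, all between 4.42 and 5.32. Levels are not to be compared between probes.

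Among the receptors, Notch1, a broadly expressed member of the family, stood at 7.38, 7.51, 7.25 and 7.40 log2 on control arrays 1 to 4 and at 7.24, 7.37, 7.03 and 7.04 on knockout-labelled arrays 1 to 4. The groups overlapped only through knockout-labelled array 2, which was above control array 3. Knockout-labelled arrays 1, 3 and 4 lay below every control array, array 1 narrowly. The group means were 7.38 ± 0.11 for control and 7.17 ± 0.17 for knockout-labelled (SD, n = 4). The difference of -0.21 (SE 0.09; 95% interval -0.41 to -0.01) was not past the threshold after adjustment over all genes (limma adjusted p = 0.168). In the deposited intensities, before any normalization, the Notch1 probe read 271, 327, 255 and 295 on the control arrays. It read 227, 264, 218 and 268 on the knockout-labelled arrays. The lowest intensity of a detected probe lay between 147 and 182 on the same 8 arrays, so Notch1 was above background throughout.

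Notch2, the receptor whose truncating mutations cause a human bone-loss syndrome, had a pair of probes and neither was detected on any array. The first, ILMN_2678002, read 4.57, 4.63, 4.62 and 4.51 log2 in control and 4.88, 4.61, 4.55 and 4.82 in knockout-labelled arrays, and the groups overlapped. The second, ILMN_2980247, read 4.63, 4.54, 4.71 and 4.56 in control and 4.51, 4.46, 4.42 and 4.43 in knockout-labelled arrays, with all knockout-labelled arrays lowest. The probes thus differed in opposite directions, by 0.13 and -0.16, both as differences between background signals. Non-overlap of the groups was found for 3.81% of the 14550 probes detected on no array. Notch3, the receptor of pericytes and vascular smooth muscle, read 5.27, 4.66, 5.32 and 5.16 in control and 5.09, 4.59, 4.74 and 4.64 in knockout-labelled arrays. Control array 2 sat among the knockout-labelled arrays, so that the groups overlapped. Notch3 differed by -0.34, between signals that were detected on no array at the threshold used. Its detection p was under 0.05 on 2 arrays, control array 3 (0.0388, the lowest) and control array 1 (0.0401).

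Of the ligands, Dll1, a Delta-like ligand, stood at 5.78, 6.05, 6.04 and 6.40 log2 in control and at 5.76, 6.00, 5.93 and 5.97 in knockout-labelled arrays. Knockout-labelled array 1 was the only array without detection. The means were 6.07 ± 0.25 and 5.91 ± 0.11 (SD, n = 4), and the difference of -0.15 (SE 0.12; 95% interval -0.41 to 0.11) was not past the threshold (limma adjusted p = 0.435). Control array 4 was the highest of the 8, and without it the difference was -0.04 (limma adjusted p = 0.803).

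Jag1, the Jagged ligand mutated in Alagille syndrome, was close to the detection limit. It read 5.41, 5.67, 5.50 and 5.77 in control arrays, of which 2 were detected, and 5.39, 5.48, 5.12 and 5.78 in knockout-labelled arrays, of which 1 was detected. The highest value of either group was that of its array 4, and the groups overlapped. With detection p-values of 0.00627 to 0.0689, it was under 0.05 on 7 of the 8 arrays. It failed the filter and had no test in the comparison as designed. When genes detected on at least 1 array were tested, its difference was -0.15 (SE 0.13; limma adjusted p = 0.547). Jag2, the other Jagged ligand, read 4.90, 4.97, 4.80 and 4.78 in control and 4.84, 4.77, 5.03 and 4.77 in knockout-labelled arrays and was detected on none.

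Of the target genes, Hes1 stood at 7.37, 7.46, 7.31 and 7.18 log2 in control and at 7.37, 7.40, 7.04 and 7.19 in knockout-labelled arrays. The groups overlapped over most of their range, and the lowest value was that of knockout-labelled array 3. The means were 7.33 ± 0.12 and 7.25 ± 0.17 (SD, n = 4), a difference of -0.08 (SE 0.09; 95% interval -0.29 to 0.13; limma adjusted p = 0.632). The deposited Hes1 intensities were 269, 320, 260 and 271 in control and 239, 268, 219 and 284 in knockout-labelled arrays.

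Hey1, which is induced by Notch and also by bone morphogenetic proteins in osteoblasts, stood at 5.89, 5.70, 5.71 and 5.68 in control and at 5.70, 5.93, 5.93 and 5.82 in knockout-labelled arrays. It was detected on 3 arrays of either group, and its detection p-values lay between 0.00376 and 0.0125. Control array 1 sat among knockout-labelled arrays 2 to 4, and knockout-labelled array 1 among the other control arrays, so that the groups overlapped. The means were 5.74 ± 0.10 and 5.84 ± 0.11 (SD, n = 4), and the difference of 0.10 (SE 0.08; 95% interval -0.07 to 0.27) was not past the threshold (limma adjusted p = 0.433). The targets Hes1 and Hey1 thus had differences of opposite sign, and both intervals included 0.

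Heyl and Nrarp were detected on no array. Heyl read 4.51, 4.49, 4.46 and 4.72 in control and 4.64, 4.61, 4.52 and 4.58 in knockout-labelled arrays. Nrarp read 4.56, 4.69, 4.57 and 4.52 in control and 4.86, 4.71, 4.65 and 4.45 in knockout-labelled arrays. The groups overlapped for both, and their detection p-values were 0.157 or higher on every array. A probe without detection here puts no level on its transcript, since it may be present below the limit of these arrays.

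The 95% intervals of the 4 tested genes give the differences that these data leave compatible. The lowest lower bound was -0.41, for Notch1, a level 1.33-fold lower in knockout-labelled arrays. The highest upper bound was 0.27, for Hey1, a level 1.20-fold higher. A missed threshold does not show that the groups were equal. In cultures of mixed cells, fewer cells of a type and less RNA per cell cannot be told apart.

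Likeness of pattern was described for Notch1, the tested member with the largest difference. Over the 8 arrays, the genes with the highest Pearson r of log2 values with Notch1 were Zfp574 (0.953), Rad50 (0.951) and Dpm2 (0.941). These are the top 3 of 7040 other genes, all points share the same 8 hybridisations, and no test was made. Hes1 ranked at 187 with r = 0.760, while Dll1 had r = 0.289 and Hey1 r = -0.345.

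The machinery around the members was described from 67 other Notch pathway genes in 7 role lists. Of these, 57 had a named probe and 30 passed the detection filter. In limma, 3 of the 30 passed in either direction, 10% against 8.62% of all genes tested. All 3 fell (against 5.08% of all genes) and 0 rose (against 3.54%). The median of the 30 was 0.01, with 16 above and 14 below 0, beside a median of 0.00 over all genes. In 5 of the 30 (16.7%) the groups did not overlap, against 16.8% of all genes.

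The gene with the largest fall was Tle4, a Groucho-type corepressor that HES proteins recruit. It stood at 7.84, 7.78, 8.03 and 7.97 in control and at 7.53, 7.58, 7.49 and 7.40 in knockout-labelled arrays, with every knockout-labelled array below every control array. It fell by 0.41 log2 (SE 0.07; limma adjusted p = 0.00947), a 1.33-fold lower level. Its 2 other probes were detected on no array. Tle4 was 1 of 5 corepressor genes tested. Tle1, of the same family, differed by 0.18 (SE 0.07; limma adjusted p = 0.152), and its second detected probe by 0.27.

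Dner, a transmembrane protein with EGF repeats that has been described as a noncanonical Notch ligand, stood at 8.40, 8.45, 8.34 and 8.19 in control and at 8.09, 8.01, 7.92 and 7.87 in knockout-labelled arrays. The groups did not overlap, and Dner fell by 0.37 log2 (SE 0.08; limma adjusted p = 0.0155), a 1.30-fold lower level. It was 1 of 2 genes tested among the other receptors and ligands. The second was Dlk1, a noncanonical ligand that inhibits Notch, which differed by -0.24 (SE 0.13; limma adjusted p = 0.257). Detection of Dlk1 was complete in control arrays and limited to 2 of the 4 knockout-labelled ones. Notch4 and Dll4, which are known from endothelium, and Dll3 were detected on no array.

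Neurl1a, an E3 ubiquitin ligase that acts on Notch ligands, stood at 9.52, 9.51, 9.52 and 9.34 in control and at 9.27, 9.14, 9.19 and 9.25 in knockout-labelled arrays. The groups did not overlap, control array 4 being the closest to the knockout-labelled arrays. It fell by 0.26 log2 (SE 0.06; limma adjusted p = 0.0354), 1 of 6 ubiquitin and endocytic regulators tested. That call was lost when any array other than control array 4 was left out (adjusted p from 0.055 to 0.0958), without a detection filter (0.0727) and with the replicate number as a block (0.0814). Mib2, another ligand-directed ubiquitin ligase, differed by -0.07 (limma adjusted p = 0.552).

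**Figure D2:**
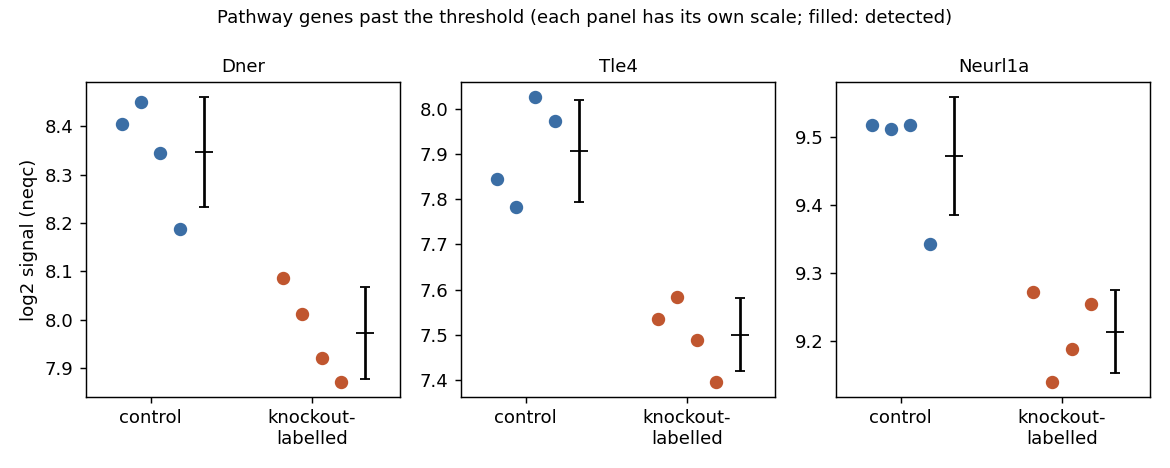
Normalized log2 signal of Dner, Tle4 and Neurl1a on each of 4 control and 4 knockout-labelled arrays, with black marks for the mean and SD and a separate scale for each panel. Every knockout-labelled array lies below every control array in all 3 panels.

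No gene of the other role lists passed. Of the 7 cleavage genes tested, 0 rose and 0 fell; Furin, the convertase that matures the receptor, differed by 0.11 and Aph1b, a gamma-secretase subunit, by 0.16 (limma adjusted p = 0.289 and 0.498). Of the 5 glycosylation genes, none passed; Pofut1, the O-fucosyltransferase of Notch EGF repeats, differed by 0.28 (SE 0.09; limma adjusted p = 0.0729) with no overlap between the groups, and Gxylt1, a xylosyltransferase, by -0.16 (adjusted p = 0.530). Of the 4 nuclear complex and coactivator genes, none passed; Maml1, the Mastermind coactivator, differed by 0.31 (SE 0.09; limma adjusted p = 0.0741), also with no overlap, and the acetyltransferase Kat2b by 0.18 (adjusted p = 0.281). Rbpj itself failed the filter, with its 3 probes detected on 1, 0 and 0 control arrays and on 1, 0 and 1 knockout-labelled arrays. In the HES and HEY family outside the set, Hes6, which antagonises Hes1, was the only 1 of 7 genes tested, at a difference of 0.13 (limma adjusted p = 0.437), and the other 6 genes, Hes5 and Hey2 among them, were detected on no array.

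**Figure D3:**
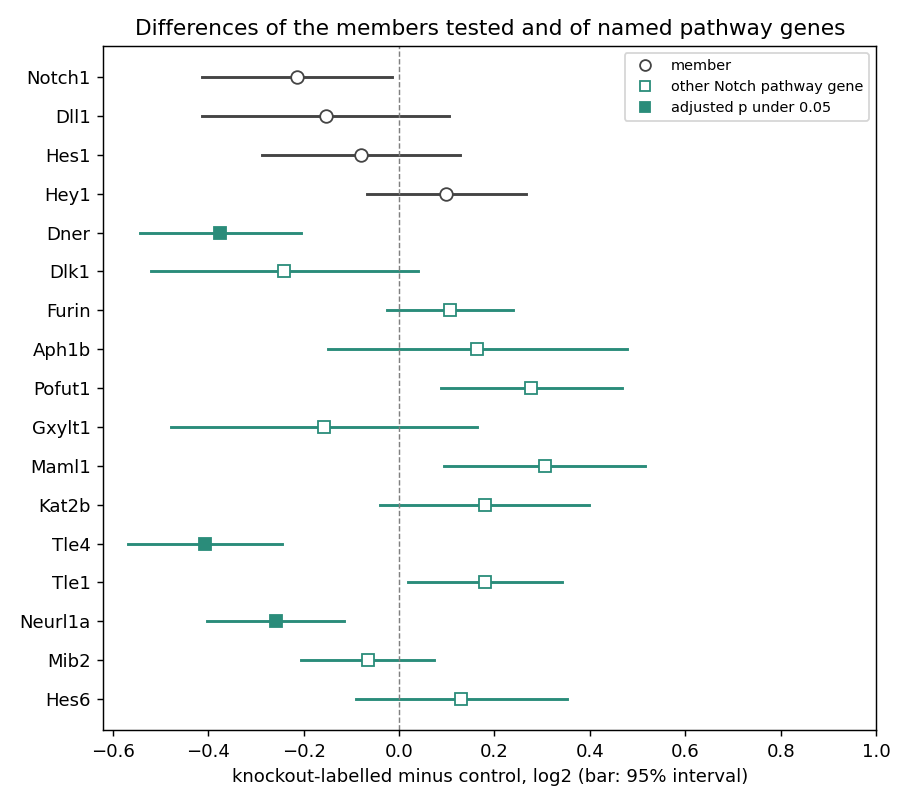
Difference between knockout-labelled and control arrays in log2, with 95% intervals, for the 4 members tested (circles) and the 13 named pathway genes (squares); filled symbols have an adjusted p under 0.05. Dner, Tle4 and Neurl1a are filled and lie below 0, and every member is open, with Notch1 the only member whose unadjusted interval excludes 0.

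Among the markers of other cells, single genes passed the test, where 5.08% of all genes fell and 3.54% rose. The macrophage and leukocyte list held 10 symbols, Emr1 being an older symbol of Adgre1, and 7 of them had a probe. In that list 5 genes were tested, of which Laptm5 fell by 0.47 log2 (limma adjusted p = 0.0042) and 0 rose. Of the other 4, Lyz2, Adgre1 and Cd14 had differences below 0 and Cd53 one above 0 (0.28; limma adjusted p = 0.166). The summed linear signal of the 5 was 3297 to 3709 in control and 2784 to 3367 in knockout-labelled arrays, and Ptprc and Itgam were detected on no array. Of the pericyte and smooth muscle list, 5 of 10 were tested and Pdgfrb rose by 0.36 (limma adjusted p = 0.02), while 0 fell. Cspg4 and Tagln also had differences above 0, and Acta2 (-0.11; limma adjusted p = 0.244) and Mcam (-0.04; adjusted p = 0.907) had differences below 0. The summed signal was 32716 to 33984 in control and 29204 to 32611 in knockout-labelled arrays and was mostly that of Acta2, at a mean of 14.89 log2 in knockout-labelled arrays, and Rgs5, Myh11 and Des were detected on no array. Of the chondrocyte list, 3 of 6 were tested and Col2a1 rose by 0.45 (limma adjusted p = 0.00757). Sox9 differed by 0.20 and Comp by 0.12 (limma adjusted p = 0.356 and 0.664), with overlap between the groups. The sums were 1229 to 1579 and 1857 to 1989 and were mostly those of Col2a1, at means of 10.29 and 10.73 log2. Acan was detected on no array. Of 9 endothelial markers with a probe, 8 were detected on no array, Pecam1, Cdh5 and Kdr among them, and Esam differed by 0.32 (adjusted p = 0.0748). The part of these cells in the falls of Tle4, Dner and Neurl1a was not tested.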

How the data were processed

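Per the file headers, the authors deposited, per probe and array, an intensity beside a detection value. GenomeStudio is the only tool in the submitters' processing notes, with no version. The deposited intensities had array medians of 126 to 155, so no normalization or background subtraction was assumed. Values deposited under a p-value heading increased with intensity (Spearman 0.979 or more), so 1 minus the value was used. A second table deposited by the authors, on a log2 scale with a median of 6.89 on each array, served only as an alternative; how it was normalized is not given.

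The neqc method of limma 3.58.1 (R 4.3.3; offset 16) gave log2 values. Genes were represented by their brightest probe among those detected on at least 4 arrays (7041 genes), and groups were compared with lmFit and eBayes without covariates, Benjamini-Hochberg adjustment and a threshold of 0.05. The platform annotation named 23978 probes, 23962 of them matched by gene ID to the GRCm38.p6 gene table, which changed 0 symbols. Among 28 pairs of arrays, 0 were identical. Samples with the same replicate number did not deviate together (correlations -0.03 to 0.09), so the numbers were not treated as pairs. The number of arrays limits the precision. The steps were tested on simulated data. Genes named are the members, Lrp5, pathway genes past the threshold and the 3 genes most like Notch1. In pathway lists with fewer than 2 genes past the threshold, those with the smallest p were named, up to 2. Genes given only as detected on no array are named beside their list. Rbpj, Numbl, Numb and the cell type markers are named outside this rule. Which markers are given with a p-value followed no stated rule. The members and lists were chosen with earlier results of these data known. Coordinates are given only for the RefSeq promoters, since no build is named for the arrays. Alternatives were other background corrections and scalings, the authors' log2 values, a replicate block, array weighting, looser and stricter detection, averaging or separating the probes of a gene, another prior and leaving out each array.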

Additional observations from a re-analysis of the deposited data

Results flagged for a closer look

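In 2 of 50 groups of 4 arrays checked, 1 array stood far from the other 3, by a gap that is large against the whole range of the group by Dixon's criterion. Chance flags about 1 in 20 such groups. For Hey1, control array 1 stood at 5.89 against 5.68 to 5.71 on the other control arrays (ratio 0.833). For Neurl1a, control array 4 stood at 9.34 against 9.51 to 9.52 (ratio 0.959).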

How the results depend on the processing

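No member passed under any of the alternatives run, the count staying at 0, and every difference of Notch1, Dll1, Hes1 and Hey1 kept its sign. The adjusted p of Notch1 lay between 0.0969 and 0.332, and its difference between -0.28 and -0.12. The number of genes past the threshold among all genes was 978 with no background correction, 971 with the authors' log2 table, 965 with a trended and robust prior, 376 with no detection filter and 408 with the replicate block, and lay between 323 and 718 with 1 array left out. Besides the fit with no detection filter, counts more than 1.5 times under 607 came on removing single arrays. These were array 1 (367), 2 (323) or 3 (329) of the control group and array 1 (395), 2 (326) or 3 (392) of the knockout-labelled group. Each was a fit with fewer samples, as was that without control array 4, which gave 718. With 75th percentile scaling, 338 genes were higher and 315 lower, against 249 and 358 as reported. The other Notch pathway genes past the threshold numbered 2 to 4. Numbl, described below, was among the 4 when genes detected on at least 1 array were tested and at a detection p under 0.05. Tle4 and Dner passed under all 20 alternatives (adjusted p up to 0.0401 and 0.0482), and Neurl1a under 11 of the 20. Neurl1a lost its call with the replicate block (0.0814), without a detection filter (0.0727) and in 7 of the fits with 1 array left out. Pofut1 passed with array weights (0.0456) and without control array 4 (0.0384). A looser detection threshold of 0.05, chosen after seeing the data, admitted Jag1 (adjusted p = 0.557). The signal over background limits Notch2, Notch3, Jag2, Heyl and Nrarp, which were detected on no array.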

Other observations

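Numbl, a relative of the Notch inhibitor Numb, failed the detection filter and was named after its values were seen. Its brighter probe stood at 5.70, 5.54, 5.55 and 5.60 log2 in control and at 6.05, 6.26, 6.12 and 5.72 in knockout-labelled arrays, detected on 0 and 3 of them. The groups did not overlap, as in 16.8% of the genes that passed the filter and 3.81% of the probes detected on no array. Numbl, detected on 3 arrays, belongs to neither set. The gap was narrow. Control array 1 stood at 5.70 and knockout-labelled array 4, where the probe was not detected, at 5.72. A control floor was set as the lowest signal of a detected probe on each control array, or the probe's own where that was higher. The mean of the knockout-labelled arrays was 1.27-fold above that floor. This is a point value without an error, and it includes the undetected array. No test is given, since the probe was detected only in the group where it is high. Some looser detection settings admitted Numbl and counted it past the threshold, and for the same reason that call is no separate evidence. Its second probe, and all 4 probes of Numb, were detected on no array.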
